A study of Mus musculus with 2 samples.

Results

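Genes of nitric oxide, cGMP and endothelin signaling were followed through RNA-seq of mouse mesenteric artery, namely Nos1, Nos2, Nos3, Gucy1a1, Gucy1b1, Prkg1, Pde5a, Npr1, Edn1 and Ece1. These 10 genes, of 55573 listed, were listed by name, with earlier results of these data known, and were found in the deposited files through their Ensembl identifiers, where Gucy1a1 and Gucy1b1 carry their older symbols Gucy1a3 and Gucy1b3. Summed over both libraries, 8 of the 10 had 10 reads or more and 2, Nos1 and Nos2, did not.

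In a resistance artery, nitric oxide is made by nitric oxide synthases from arginine, diffuses into the smooth muscle and binds soluble guanylyl cyclase, which then forms cGMP. cGMP activates the kinase PKG, which lowers cytosolic Ca2+ and the Ca2+ sensitivity of the contractile filaments, so that the muscle relaxes, until phosphodiesterases hydrolyze the cGMP. Endothelin, a peptide that endothelial cells cut from a longer precursor, works in the opposite direction, and contracts smooth muscle through its receptors.

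The arteries came from wild type C57BL/6 mice aged 10 weeks, and the study asked which genes change their transcript level on membrane depolarization. Control arteries were held in 5 mM K+ and depolarized arteries in 60 mM K+, with 60 min on the labels of both groups, and 1 library was made per group from pooled tissue of 2 mice. According to the study's methods every solution contained tetrodotoxin, a blocker of nerve Na+ channels. The sources differ on the control: the main text has both groups perfused, while the supplementary methods have the control tissue cut from the distal side of the arterial bed and 60 mM K+ perfused afterwards through what remained. By the latter account the K+ concentration, the position along the bed, the perfusion and the longer time after dissection cannot be told apart. Both groups would then also come from the same arterial beds and would not be independent. Since each group is a single library, the spread between replicates is unknown for every difference, and no p-values are printed.

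The control library held 10480918 reads on genes and the depolarized library 11289598. Fold changes are log2(fold-change) of 60 mM K+ over 5 mM K+ after TMM scaling (edgeR's trimmed mean of the log ratios), each with a 95% Clopper-Pearson interval from the reads, which covers counting error only and not the spread between mice. Where a pair of read counts is given without its groups, the 5 mM K+ library comes first. Scaling by total counts lowered every log2(fold-change) by 0.21. Genes with at least 10 reads numbered 14829, and with them as background 5.54% lay above a log2(fold-change) of 1, the fold of the study's own criterion, and 5.86% below -1. A counting interval above 0 was found in 25.0% of these genes and one below 0 in 20.3%, together 45.3%, and among genes with at least 500 reads 62.8% had an interval that excluded 0.

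Of the 8 genes with enough reads, Nos3 and Edn1 passed a log2(fold-change) of 1 and 0 genes passed -1, where 5.54% of the 14829 genes lay above 1 and 5.86% below -1. With total counts 0 genes passed either, where 4.05% of the 14829 genes lay above 1 and 8.67% below -1. The counting interval lay above 0 for 3 genes (Nos3, Edn1 and Ece1), below 0 for 3 genes (Gucy1a1, Gucy1b1 and Pde5a), and held 0 for Prkg1 and Npr1. Of the 14829 genes, 25.0% had an interval above 0 and 20.3% one below. All 8 genes had over 500 reads, and among genes with at least 500 reads 62.8% had an interval that excluded 0. With total counts the interval of 6 of the 8 genes excluded 0, with Prkg1 in place of Ece1, compared with 52.0% of the 14829 genes. For total counts the share among genes of like depth was not computed. The median of the 8 values was 0.0018 within a range of -0.56 to 1.14, compared with a median of -0.0047 over the 14829 genes. Thus the endothelial synthase and the endothelin precursor had more reads in 60 mM K+, while both main subunits of the cyclase had fewer, by unequal amounts. In bulk tissue such as this, fewer cells of a type and less RNA per cell cannot be told apart.

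**Figure D1:**
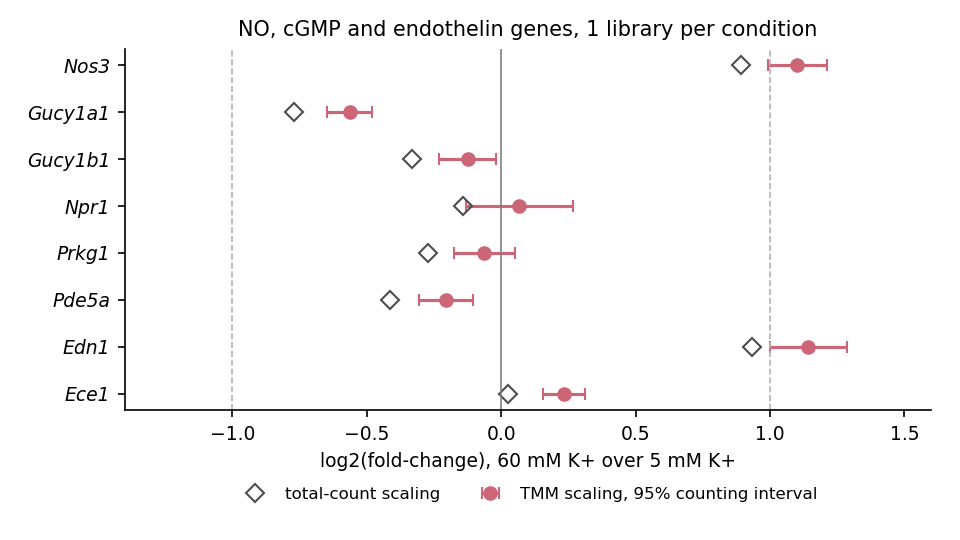
Change of the 8 genes above the minimum of 10 reads (horizontal axis, log2(fold-change), 60 mM K+ over 5 mM K+, 1 library per condition); filled circles are TMM-scaled values with 95% counting intervals, open diamonds the same reads scaled by total counts, and dashed lines mark 1 and -1. Nos3 and Edn1 lie beyond 1 with TMM at 1.10 and 1.14 and below it with total counts at 0.89 and 0.93, and Gucy1a1 is the lowest of the 8 at -0.56.

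Promoter sequence was read for these genes because the study addresses CREB, the transcription factor that binds the cAMP response element (CRE). The reference table (RefSeq, GRCm38.p6) held promoters for 8 of the 10 genes, in 13 windows of 250 bases before an annotated start, and none for Nos2 or Nos3. A full CRE, TGACGTCA, was found in 0 of the 13 windows, and it is present in 1.55% of all 32851 windows of the table. The CRE core, TGACG on either strand, lay in the windows of Gucy1b1 and Nos1, the latter wholly inside the gene by GENCODE vM1, and 17.8% of all windows hold it. The single Edn1 window, of which 206 bases lie inside the gene as GENCODE vM1 places it, held none of the 7 motifs searched, which were the full CRE, the CRE core, the AP-1 site TGANTCA, the TATA box TATAAA, the GC box GGGCGG, the hypoxia response core ACGTG and the GATA site AGATAA. The windows of Gucy1b1 and of Gch1, a gene of the nitric oxide cofactor described with the synthases, are shown because both hold the core and at least 1 GC box, although Gucy1b1 had fewer reads and Gch1 more in 60 mM K+. Both are written 5′ to 3′ on the strand of the gene, with motif matches in capitals, and their last base is the one before the start of transcription.
Gch1, minus strand, mm9 chr14:47809089-47809338: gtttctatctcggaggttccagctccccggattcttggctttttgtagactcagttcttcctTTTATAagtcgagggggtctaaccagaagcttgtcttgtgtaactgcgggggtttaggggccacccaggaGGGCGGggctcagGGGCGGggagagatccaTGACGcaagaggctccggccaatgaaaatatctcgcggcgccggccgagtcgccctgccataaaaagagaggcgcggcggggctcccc
Gucy1b1, minus strand, mm9 chr3:81878634-81878883: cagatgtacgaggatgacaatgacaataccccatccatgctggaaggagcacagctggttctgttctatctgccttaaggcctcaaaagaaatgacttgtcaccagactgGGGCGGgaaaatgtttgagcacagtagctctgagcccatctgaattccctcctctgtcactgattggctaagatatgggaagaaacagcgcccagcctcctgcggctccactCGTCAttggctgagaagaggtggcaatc
In the Gch1 window the capitals are TATAAA on the other strand (-188 to -183 from the start), GC boxes at -118 and -105, and TGACG at -88. In the Gucy1b1 window they are a GC box at -140 and TGACG on the other strand at -28. GGGCGG occurs in 32.7% of all windows and TATAAA in 12.4%, and a match describes these letters and not a bound site.

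Among the nitric oxide synthases, the reads came almost wholly from Nos3. Nos3 (ENSMUSG00000028978, mm9 chromosome 5, 23870628 to 23890292, plus strand), the endothelial isoform, had 1013 reads in 5 mM K+ and 2025 in 60 mM K+, or 89.9 and 193 CPM (reads scaled by TMM to a library of 1000000). The depolarized library was the higher one, by 2.14-fold, which is 1.10 as log2(fold-change), with a counting interval of 0.99 to 1.21, and 4.94% of the 14829 genes had a higher value. Scaled by total counts the log2(fold-change) was 0.89, below the fold criterion.

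Nos1 (chromosome 5, 118231041 to 118408849), the neuronal isoform, had 4 control reads and 3 reads on depolarization. Nos2 (chromosome 11, 78734289 to 78773756), the isoform induced by inflammatory stimuli, had 1 control read and 0 reads on depolarization, where 3 counts, taken as a floor, correspond to 0.286 CPM. Both isoforms were too low for a fold change at this depth. Nos3 made up 99.5% of the reads of the 3 isoforms in 5 mM K+ (exact interval 98.9 to 99.8) and 99.9% in 60 mM K+, with an exact interval whose lower end was 99.6%. The summed level of 8 macrophage markers, of which 0 were at 0 in either library, was 38.0 CPM in the control and 33.0 CPM in the depolarized library.

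Part of the Nos3 transcript is covered on the opposite strand by other genes. Atg9b, an autophagy gene, shares 294 exon bases, 7.12% of those of Nos3, and had 23 reads in 5 mM K+ and 83 in 60 mM K+. Gm15587, a noncoding transcript, shares 1040 bases (25.2%) and had 21 and 22 reads. The library kit does not mark strand, so reads from the shared bases cannot be told apart, and the strand setting of the counting is not given in the sources used here. The counts of Atg9b and Gm15587 are small beside those of Nos3, but do not show how many reads fell on the shared bases.

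Among the genes that supply and regulate the synthases, 14 of 17 listed had at least 10 reads, 1 passed 1, 1 passed -1, and the median log2(fold-change) was 0.14 with TMM and -0.07 by total counts. With TMM, 5.54% of the 14829 genes lay above 1 and 5.86% below -1. Gch1 (chromosome 14, 47773570 to 47809088), GTP cyclohydrolase, the first and rate-limiting enzyme in the synthesis of the cofactor tetrahydrobiopterin, had 150 reads in 5 mM K+ and 330 in 60 mM K+. It was higher in the depolarized library, with a log2(fold-change) of 1.24 (0.96 to 1.53), and 1.03 by total counts. Slc7a2 (chromosome 8, 41947750 to 42007662), a transporter of arginine and other cationic amino acids, went the other way, with 1925 reads in 5 mM K+ and 820 in 60 mM K+ and a log2(fold-change) of -1.13 (-1.25 to -1.01). Other genes of the cofactor, Pts, Spr and Qdpr, had values of 0.05 to 0.11 with intervals that held 0, and below 0 by total counts.

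Cav1, the caveolar coat protein that binds and restrains the endothelial synthase, had 5233 control reads and 5212 on depolarization, a value of 0.10 (0.04 to 0.15) with TMM that lay below 0 by total counts. Ddah2, which degrades the endogenous synthase inhibitor dimethylarginine, had 824 and 798 reads, a value of 0.06 whose interval held 0. The genes that recycle citrulline to arginine and a second arginine transporter were singled out after their values were seen. Ass1 had 422 and 658 reads (0.74, interval 0.56 to 0.92) and Asl 155 and 223 reads (0.63, 0.32 to 0.93). Slc7a1, the other arginine transporter, had 578 and 958 reads, with a log2(fold-change) of 0.83 (0.68 to 0.98), opposite in direction to Slc7a2.

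Soluble guanylyl cyclase is built from an alpha and a beta subunit, encoded by Gucy1a1 and Gucy1b1. Gucy1a1 (ENSMUSG00000033910, chromosome 3, 81896350 to 81949799) and Gucy1b1 (ENSMUSG00000028005, chromosome 3, 81835926 to 81878633) are neighbors on the minus strand, 17716 bases apart. Gucy1a1 had 3098 reads in 5 mM K+ and 1954 in 60 mM K+, or 275 and 186 CPM. The depolarized library was the lower one, by 1.48-fold, a log2(fold-change) of -0.56 (-0.65 to -0.48), and 86.2% of the 14829 genes had a higher value.

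Gucy1b1 had 1580 reads in 5 mM K+ and 1351 in 60 mM K+, or 140 and 129 CPM. Its log2(fold-change) of -0.12 (-0.23 to -0.02) was closer to 0 than that of Gucy1a1. The ratio of the subunits within a library does not depend on the scaling between libraries. Gucy1a1 made up 66.2% of the reads of the pair in the control library (exact interval 64.8 to 67.6) and 59.1% in the depolarized library (57.4 to 60.8), a log2 change of the Gucy1a1 to Gucy1b1 ratio of -0.44 (-0.57 to -0.30). Per length the subunits lay closer to each other in 60 mM K+: the ratio of their FPKM values (fragments per kilobase of gene and total mapped fragments) was 1.44 in 5 mM K+ and 1.06 in 60 mM K+. Gucy1a2, the alternative alpha subunit, had 93 and 60 reads and made up 2.91% and 2.98% of the alpha subunit reads, with a log2(fold-change) of -0.53 (-1.02 to -0.05), a size close to that of Gucy1a1.

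Npr1 (ENSMUSG00000027931, chromosome 3, 90254513 to 90269788), the membrane guanylyl cyclase that binds atrial and brain natriuretic peptide, had 424 reads in 5 mM K+ and 414 in 60 mM K+. The log2(fold-change) of Npr1 was 0.07 (-0.13 to 0.27) with TMM and -0.14 by total counts, so its direction depended on the scaling. Gm16048, a noncoding transcript on the opposite strand of Npr1, shares 559 exon bases with it (11.7%) and had 0 reads in both libraries. Npr2, the receptor of C-type natriuretic peptide, had 697 and 591 reads, with a log2(fold-change) of -0.14 (-0.30 to 0.02). Reads of the peptides themselves were few: Nppa and Nppb had 0 in both libraries and Nppc had 0 and 2. Cyb5r3, a reductase that keeps the heme of the cyclase in the reduced state, had 5287 and 6224 reads, with a log2(fold-change) of 0.34 (0.28 to 0.39). In this list 4 of 9 genes had at least 10 reads, 0 passed the fold in either direction, and the median was 0.10 with TMM and -0.11 by total counts. With TMM, the shares of the 14829 genes past 1 and -1 were 5.54% and 5.86%.

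Prkg1 (ENSMUSG00000052920, chromosome 19, 30643728 to 31839312), which encodes the cGMP-dependent kinase of smooth muscle, had 1344 reads in 5 mM K+ and 1199 in 60 mM K+. With 119 and 114 CPM the libraries lay close together, and the log2(fold-change) of -0.06 (-0.18 to 0.05) did not differ from 0 beyond counting error. By total counts it was -0.27. Pde5a (ENSMUSG00000053965, chromosome 3, 122432076 to 122562292), the cGMP-specific phosphodiesterase that sildenafil inhibits, had 1852 and 1498 reads, or 164 and 143 CPM. The depolarized library was the lower one, with a log2(fold-change) of -0.20 (-0.30 to -0.11).

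All 8 partners and substrates of the kinase on the list had at least 10 reads, 0 passed the fold, and the median was -0.09, with 4 intervals below 0 and 2 above. Across the 14829 genes, 20.3% had an interval below 0 and 25.0% above, while 5.54% passed 1 and 5.86% passed -1. Among genes with at least 500 reads, as all on this list but Prkg2 were, 62.8% had an interval that excluded 0. Ppp1r12a, the myosin phosphatase targeting subunit, had 10992 reads in 5 mM K+ and 9150 in 60 mM K+ (-0.16, -0.20 to -0.12). Rgs2, which shortens G protein signaling of contractile receptors, had 6356 and 5687 reads (-0.06, -0.11 to -0.01), and Irag1, which couples the kinase to the Ca2+ release channel of the sarcoplasmic reticulum, had 3715 and 3160 (-0.13, -0.20 to -0.06). That release channel, Itpr1, named after its values were seen, had 3506 and 2291 reads, with a log2(fold-change) of -0.51 (-0.59 to -0.44). The 2 genes with intervals above 0 were Vasp, an actin regulator phosphorylated by the kinase, with 1677 and 1942 reads (0.31, 0.22 to 0.41), and Kcnma1, the pore of the large-conductance K+ channel, with 682 and 825 reads (0.38, 0.23 to 0.52).

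Most other genes that hydrolyze or export cGMP had fewer scaled reads in 60 mM K+. Of 11 listed, 8 had at least 10 reads and 0 passed the fold, with a median log2(fold-change) of -0.42, 4 intervals below 0 and 0 above it. For comparison, the median of the 14829 genes was -0.0047, with 20.3% of intervals below 0 and 25.0% above. Past 1 and -1 lay 5.54% and 5.86% of them. Among genes with at least 500 reads, such as Pde1a, Pde3a and Abcc5, 62.8% had an interval that excluded 0. Pde3a, a phosphodiesterase of cAMP that cGMP inhibits, had 3777 and 2462 reads (-0.52, -0.59 to -0.44). Abcc5, an exporter of cyclic nucleotides, had 1089 and 722 reads (-0.49, -0.63 to -0.35). Pde1a, a Ca2+ and calmodulin dependent phosphodiesterase, had 819 and 603 reads (-0.34, -0.49 to -0.19). Reads summed over the list were 6443 in 5 mM K+ and 4349 in 60 mM K+, which gives -0.47 (-0.52 to -0.41). Most of these reads were of Pde3a. Abcc4, another exporter, was the 1 gene of the 8 with a value above 0, at 0.06 with TMM and below 0 by total counts.

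Edn1 (ENSMUSG00000021367, chromosome 13, 42396639 to 42403358, plus strand), which encodes the endothelin precursor, had 594 reads in 5 mM K+ and 1223 in 60 mM K+, or 52.7 and 116 CPM. The depolarized library was the higher one, by 2.21-fold, with a log2(fold-change) of 1.14 (1.00 to 1.29), and 4.37% of the 14829 genes had a higher value. By total counts it was 0.93. Nos3 and Edn1 differed between the libraries by about the same amount: the log2 change of the ratio of Edn1 to Nos3 reads was 0.04, with a counting interval of -0.14 to 0.22. Edn2 had 0 reads in both libraries and Edn3 had 0 and 2, so Edn1 was the only endothelin gene with over 2 reads in either library.

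Ece1 (ENSMUSG00000057530, chromosome 4, 137418152 to 137521144), the endothelin-converting enzyme that cleaves the precursor peptide, had 2573 reads in 5 mM K+ and 2818 in 60 mM K+. The log2(fold-change) of Ece1 was 0.23 (0.16 to 0.31) with TMM and 0.02 by total counts. The ratio of Ece1 to Edn1 in FPKM was 6.14 in 5 mM K+ and 3.27 in 60 mM K+. Ece2, the related enzyme, had 0 reads and 1 read.

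The balance of the endothelin receptors differed between the libraries. Ednra (chromosome 8, 80186930 to 80248363), the contractile receptor of smooth muscle, had 691 reads in 5 mM K+ and 452 in 60 mM K+, a log2(fold-change) of -0.51 (-0.69 to -0.34). Ednrb, which in endothelium is coupled to nitric oxide release and also clears the peptide, had 723 and 758 reads and a value of 0.17 (0.02 to 0.32) with TMM, and -0.04 by total counts. Ednra made up 48.9% of the reads of the pair in the control library (exact interval 46.2 to 51.5) and 37.4% in the depolarized library (34.6 to 40.2), which does not depend on the scaling. Mme, neprilysin, a peptidase that degrades endothelin and natriuretic peptides, had 14 and 4 reads, with a log2(fold-change) of -1.71, and its wide interval of -3.77 to -0.035 comes with these few reads. Ecel1, an enzyme related to Ece1, had 14 and 22 reads (0.75, -0.28 to 1.83). In this list 4 of 7 genes had at least 10 reads, 0 passed 1, 1 passed -1, and the median was -0.17. The shares past 1 and -1 over the 14829 genes were 5.54% and 5.86%.

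**Figure D2:**
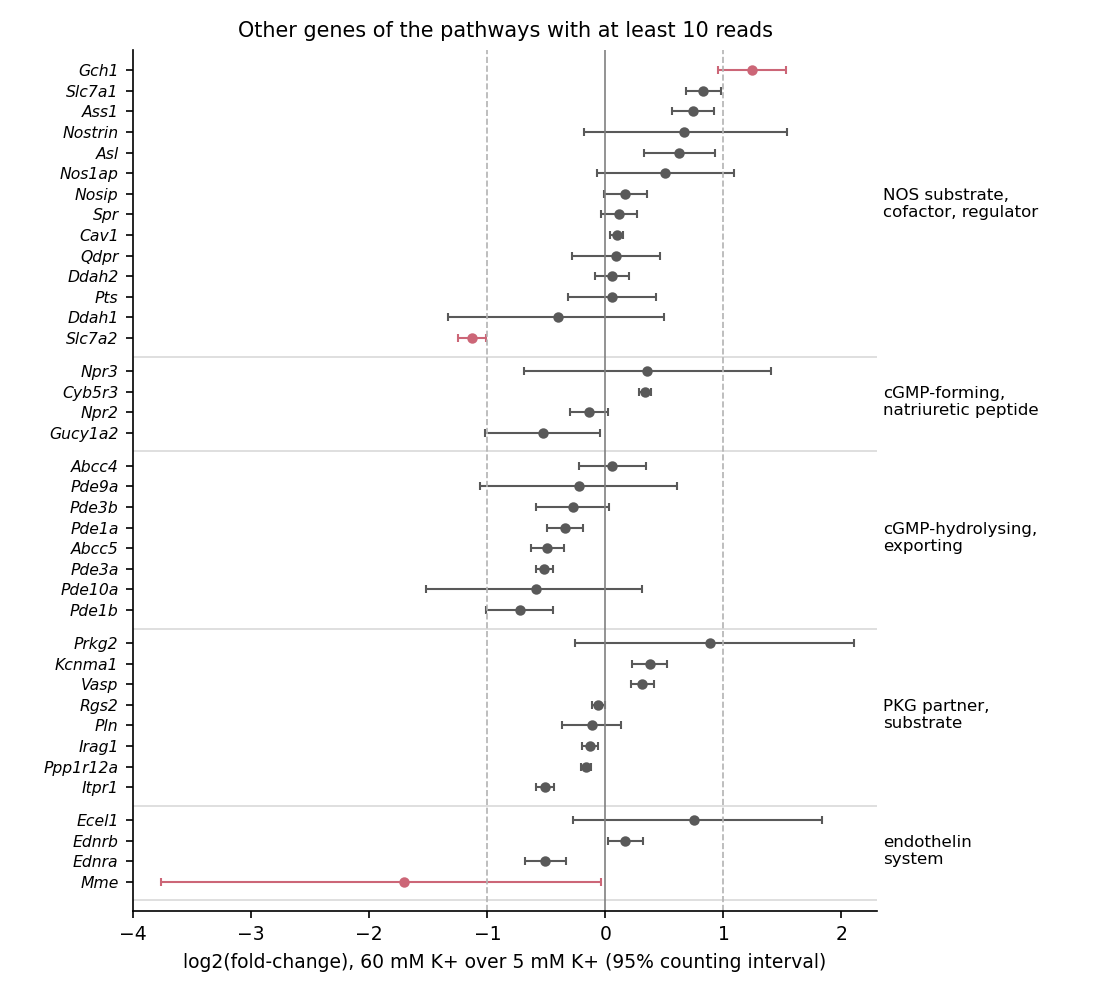
Log2(fold-change) with 95% counting intervals (horizontal axis, 60 mM K+ over 5 mM K+, TMM) of the 38 other genes of these pathways that had at least 10 reads, grouped by role and ordered by value within each group; red marks the 3 genes beyond 1 or -1. Gch1 is the 1 gene above 1, and Slc7a2 and Mme lie below -1. Of the 8 genes that hydrolyze or export cGMP, 7 lie below 0, of which 4 have an interval below 0. The median of the 14829 genes was -0.0047.

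Over all 5 lists, 38 of 52 genes had at least 10 reads, of which 1 passed 1 and 2 passed -1. Of the 14829 genes, 5.54% passed 1 and 5.86% passed -1. Intervals lay above 0 for 9 genes and below 0 for 12, and held 0 for 17, where 25.0% and 20.3% of the 14829 genes had intervals above and below 0. Among genes with at least 500 reads, 62.8% had an interval that excluded 0. The median was 0.06.

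Compared per length within each library, Ece1 was the most abundant of the 10 genes, with 163 FPKM in 5 mM K+ and 165 in 60 mM K+. In 5 mM K+ the order continued with Gucy1a1 (111 FPKM), Gucy1b1 (77.1), Prkg1 (60.3), Pde5a (39.4), Npr1 (28.0), Edn1 (26.5) and Nos3 (24.7). In 60 mM K+ it continued with Gucy1a1 (65.2), Gucy1b1 (61.2), Edn1 (50.6), Prkg1 (49.9), Nos3 (45.8), Pde5a (29.6) and Npr1 (25.4). Edn1 went from rank 7 to rank 4 and Nos3 from rank 8 to rank 6, while the first 3 places did not change. Neighbors such as Edn1 and Prkg1 in 60 mM K+, or Npr1, Edn1 and Nos3 in 5 mM K+, cannot be ordered firmly, since the spread between mice was not measured. Nos1, at 0.10 and 0.070 FPKM, and Nos2, at 0.035 and 0, closed the order.

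**Figure D3:**
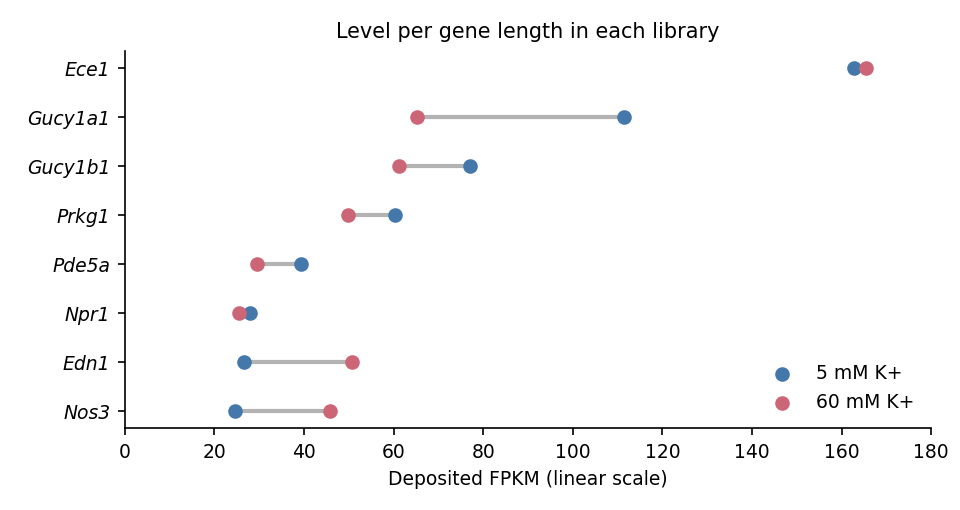
Deposited FPKM (horizontal axis, linear scale) of the 8 genes above the read minimum in the 5 mM K+ library (blue) and the 60 mM K+ library (red), joined by a line and ordered by the 5 mM K+ value. Edn1 and Nos3 start lowest at 26.5 and 24.7 and reach 50.6 and 45.8, Gucy1a1 moves from 111 to 65.2, and Ece1 stays at 163 and 165.

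Because Nos3 and Edn1 are transcribed mainly in endothelium and the cyclase and kinase mainly in smooth muscle, the members were set against markers of these cells. Markers of both layers of the artery wall were present: the 7 smooth muscle markers summed to 36787 CPM in 5 mM K+ and 40420.3 CPM in 60 mM K+, and the 10 endothelial markers to 3628 and 4918 CPM, with 0 markers of either list at 0. Tagln, a major transcript of contractile smooth muscle, had only 314 and 387 reads, and the cause of this low count was not tested. It shares 65 exon bases (4.10%) with Pcsk7 on the opposite strand.

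Endothelial markers were themselves mostly higher in the depolarized library, with intervals above 0 for 8 of 10 genes, a range of -1.10 to 0.83 and a summed log2(fold-change) of 0.44 (0.42 to 0.46). Per 1000 endothelial marker reads, Nos3 had 24.8 reads in 5 mM K+ and 39.2 in 60 mM K+, a log2 change of 0.66 (0.55 to 0.77). For Edn1 the values were 14.5 and 23.7, a log2 change of 0.70 (0.56 to 0.85). Both remained higher relative to the markers, by less than the fold criterion. The size depended on the marker: against Cdh5 alone, the endothelial cadherin, the changes were 0.27 for Nos3 and 0.31 for Edn1, and against Vwf alone, von Willebrand factor, 0.83 and 0.87. Pecam1 and Vwf held most of the summed marker reads, with 19497 and 10480 of 40871 in 5 mM K+. Ratios to single markers were computed for Cdh5, Pecam1 and Vwf only, so these values are not the range over the 10 markers. Of the 10 markers, 2 had fewer scaled reads in 60 mM K+: Kdr, the main receptor of vascular endothelial growth factor, with 168 and 73 reads and a value of -1.10, and Emcn, endomucin, with 21 and 11 reads and a value of -0.83 (-2.03 to 0.29).

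Ece1 and Npr1, which endothelium and smooth muscle both express, had fewer reads per 1000 endothelial marker reads in 60 mM K+, with 63.0 and 54.6 for Ece1 (-0.21, -0.29 to -0.13) and 10.4 and 8.02 for Npr1 (-0.37, -0.57 to -0.17). Their ratio to smooth muscle markers was not computed. With TMM, Ece1 was at 0.23, Npr1 at 0.07 and the summed smooth muscle markers at 0.14, so the direction for Ece1 depends on the marker set. Smooth muscle markers ranged from -0.16 to 0.40, with a summed log2(fold-change) of 0.14 with TMM and below 0 by total counts. Against them Gucy1a1 had 7.47 reads per 1000 in 5 mM K+ and 4.60 in 60 mM K+, a log2 change of -0.70 (-0.78 to -0.62). Against the summed markers, of which Acta2 and Myh11 (smooth muscle actin and myosin) hold most reads, the changes were -0.26 for Gucy1b1, -0.20 for Prkg1 and -0.34 for Pde5a, each with an interval below 0. These values depended on the marker. Against Smtn (smoothelin) or Lmod1 (leiomodin) alone, the change of Gucy1a1 was -0.42 and -0.40, both with intervals below 0, whereas Gucy1b1 (0.017 and 0.035), Prkg1 (0.078 and 0.096) and Pde5a (-0.063 and -0.045) had intervals that held 0.

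**Figure D4:**
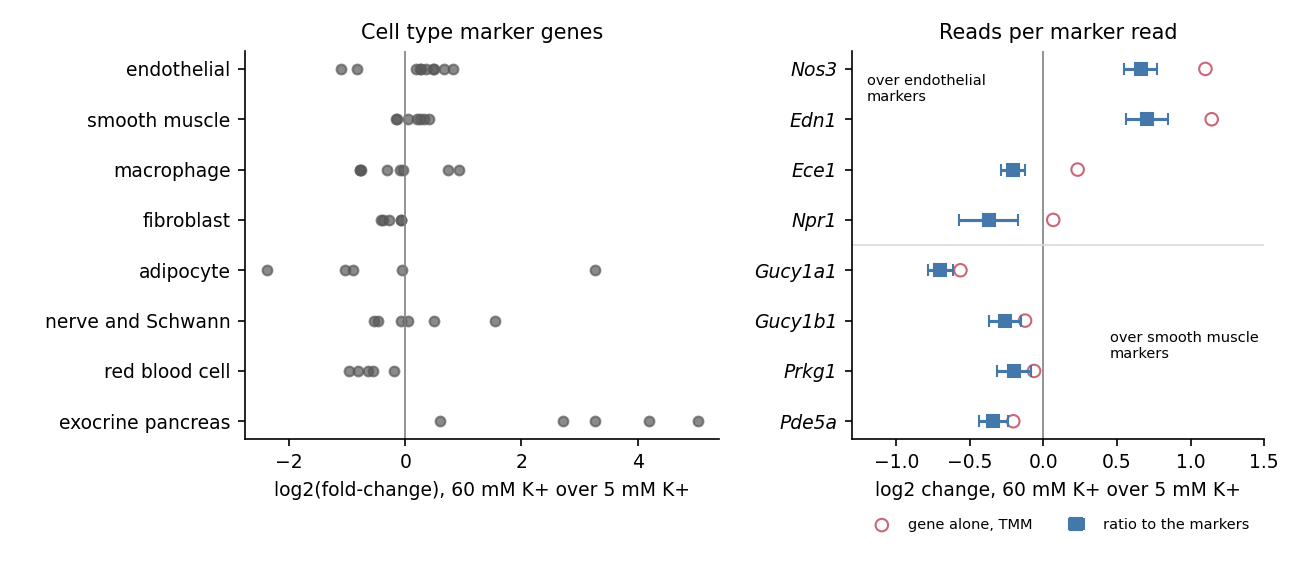
Left, log2(fold-change) of each marker gene with at least 10 reads (points, TMM) for 8 cell types; right, log2 change of member reads per endothelial (upper 4 genes) or smooth muscle (lower 4 genes) marker read (squares, 95% counting intervals) beside the gene alone (open circles). Nos3 and Edn1 lie at 0.66 and 0.70 relative to endothelial markers, and Gucy1a1 at -0.70 relative to smooth muscle markers.

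Markers of other cells also differed between the libraries. The 5 fibroblast markers had a summed log2(fold-change) of -0.14, with all 5 intervals below 0, and the 5 adipocyte markers -0.26, ranging from -2.39 to 3.27. Most adipocyte marker reads were of Fabp4, with 1060 and 951 reads and a value of -0.06 whose interval held 0. The value of 3.27 was that of Lep, with 1 and 9 reads. Plin1 (-2.39), Adipoq (-1.04) and Cidec (-0.90) had intervals below 0. The 5 red blood cell markers summed to -0.65 and the 7 nerve and Schwann cell markers to 0.12 (below 0 by total counts), of which Th, tyrosine hydroxylase, had 0 reads in both libraries. The 5 exocrine pancreas markers rested on few reads, 128 in the control and 415 in the depolarized library, with a summed value of 1.80. The 8 macrophage markers had a summed value of -0.20 (-0.41 to 0.01). The part of these cells in the values of the 10 genes was not tested.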

How the data were processed

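Transcripts were measured by RNA-seq in 2 libraries of mesenteric artery, 1 per K+ concentration, prepared from poly-A RNA with a kit that does not mark strand. According to the study's methods the alignment was made to mm9 with TopHat2, and the authors deposited the counts of reads for each gene unnormalized. The submitters' processing notes list TopHat2 2.0.12, HTSeq 0.6.1, edgeR 3.0.8 and the builds mm8 and mm9. Which annotation and strand setting were used is not given in the sources used here. The authors also deposited FPKM values, which proved to be scaled by total counts, with the same ratio of counts to FPKM between libraries for every gene. Symbols and mm9 positions came from GENCODE vM1, which held 32601 of 55573 identifiers. Promoter windows came from RefSeq (GRCm38.p6) and were placed on mm9 by a unique exact match.

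Counts were scaled with edgeR 4.0.16 (TMM) in R 4.3.3. A quasi-likelihood fit in edgeR needs replicates and was not possible, so a gene was called past an absolute log2(fold-change) of 1 with 10 reads or more summed over both libraries. Intervals of fold changes and of shares are Clopper-Pearson (scipy 1.17.1, Python 3.11.15), with figures from matplotlib 3.10.9. Those of a change in the ratio of a gene to markers or to another gene are conditional exact intervals of the odds ratio. All intervals cover counting error only. The floor of 3 counts only marks a low level, and a count of 0 was replaced by 0.5 in a fold change. The Clopper-Pearson interval of the fold changes was run on simulated Poisson counts with known scaling and no spread between mice. That simulation therefore cannot show how the interval performs with either error present, and the odds ratio interval was not simulated. Other settings tried were median-of-ratios scaling (DESeq2 1.42.0), total counts and the upper quartile, no filter or at least 50 reads, the exact binomial test of the reads, the nearest interval end, and FPKM with pseudocounts of 0.1 and 1.

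The members, gene lists and markers were chosen with earlier results of these data known. Named were all members, every other pathway gene past the fold, and the 3 genes with most reads per list. A gene left out of the lists is not reported here. The remaining named genes (such as Ass1, Asl, Slc7a1, Itpr1, Vasp, Kcnma1, Abcc4, and the genes with few reads), the motif search and the single-marker ratios were chosen after values were seen. Protein sequences, imaging and qPCR were not analysed here.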

Additional observations from a re-analysis of the deposited data

How the results depend on the processing

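The number of members past an absolute log2(fold-change) of 1 was 2 with TMM, upper-quartile and median-of-ratios scaling, without a filter, with at least 50 reads, and with the exact binomial test of the reads added. It was 0 with total counts, 0 with FPKM and a pseudocount of 0.1, 0 with FPKM and a pseudocount of 1, and 1 at the nearest end of the counting interval, where Edn1 passed and Nos3, at 0.99, did not. The lower values with total counts and FPKM follow from the 0.21 by which TMM raises every log2(fold-change). Past the same fold lay 11.4% of the 14829 genes with TMM and 12.7% with total counts. The number of members whose counting interval excluded 0 was 6 with each scaling of the counts, although with total counts Prkg1 took the place of Ece1. Of the 14829 genes, 45.3% had such an interval with TMM and 52.0% with total counts. With TMM the share was 62.8% among genes with at least 500 reads, as all 8 members had. Total counts and FPKM moved all 8 values beyond their counting intervals, and turned Npr1 from 0.07 to -0.14, whereas upper-quartile and median-of-ratios scaling kept all 8 within them. Against Pecam1 alone, added after the data were seen, the changes were 0.60 for Nos3 and 0.64 for Edn1. Against single smooth muscle markers, also added afterwards, the direction turned for Gucy1b1 (0.017 with Smtn and 0.035 with Lmod1) and Prkg1 (0.078 and 0.096), with intervals that held 0. Against Acta2 or Myh11 alone the values of Gucy1a1, Gucy1b1, Prkg1 and Pde5a were below 0. Of these, only Prkg1 against Myh11 had an interval that held 0 (-0.22 to 0.003). No paired analysis was possible because a single library stands for each condition, and no library could be left out. With 1 library per condition, depth limits the precision for Nos1, Nos2 and Mme, and the spread between mice is unknown for all members.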
